A study of Sus scrofa with 6 samples.

Results

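Heat shock proteins and their partner chaperones were followed in longissimus muscle, the long back muscle, of pigs (Sus scrofa) with high and low intramuscular fat. Members were taken by gene symbol: every record named as a heat shock protein (HSPA, HSPB, HSPD, HSPE, HSPH, HSP90, HSPCB), a DNAJ, BAG, CCT or HSF gene, TCP1, STIP1 or CRYAB. This gave 64 records with 62 symbols among the 7661 records of the deposited count table. The high group held 3 libraries and the low group 3 libraries, which the study design describes as samples of 3 pigs each. Both groups are the same tissue of the same species, and they differ by label in intramuscular fat alone, with no treatment named. The sources used here do not give breed, sex, age, muscle fat percentage or the time from slaughter to sampling. The labels do not say whether the 3 libraries of a group share a litter, pen or day. The p-values set the group difference against the spread between these libraries and take the libraries as independent.

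Chaperones bind proteins that are unfolded, newly made or damaged, and keep them from clumping until they fold. HSP70 proteins do this in cycles of ATP hydrolysis, which J domain proteins (the DNAJ genes) start and which BAG and HSP110 proteins end by releasing the nucleotide. HSP90 takes over clients from HSP70 through the adaptor STIP1, the small heat shock proteins hold unfolded proteins without ATP, and the chaperonins are barrels in which a protein folds. The transcription factor HSF1 switches on many of the cytosolic genes when unfolded protein accumulates, after heat, exertion or loss of oxygen. In striated muscle, small heat shock proteins such as CRYAB, HSPB1, HSPB6, HSPB7 and HSPB8 are abundant and bind the sarcomere and its Z-disc.

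Library totals ran from 25371989 to 28874691 reads in the high group and from 30139025 to 34813172 reads in the low group. Levels are given as CPM, in which each count is scaled by its library's total reads, divided by a TMM factor between 0.939 and 1.07 that offsets differences in composition. A count of 3 was worth between 0.0862 and 0.118 CPM, far below every level given here. Each record of the table had more than 10 CPM in at least 3 libraries, so chaperone genes below that level were not analysed here. Skeletal muscle markers (7 of 13 listed genes have a record) summed to between 93095 and 114838 CPM in the 6 libraries, so the labelled tissue's markers were abundant in each. Adipocyte markers (5 of 9 genes) summed to between 87.1 and 219 CPM in the high group and between 47.4 and 62.7 CPM in the low group. Fibroblast and matrix markers (11 of 11 genes) summed to between 3904 and 5220 CPM in the high group. In the low group they summed to between 1638 and 3366 CPM. Both sums were thus apart between the groups, but not every record was. Of 14 matrix records 12 were wholly higher in the high group, while DCN and 1 COL1A1 record overlapped. Of 5 adipocyte records 3 were wholly higher, LIPE overlapped and AQP7 was wholly lower. Those 3 (PLIN1, CIDEA and CIDE-C) and ELN were under 10 CPM in every low library. They could enter the table only through the high group, which favours such a difference. In bulk tissue, fewer cells of a type and less RNA per cell cannot be told apart. The part of these other cells in any chaperone difference was not tested.

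Low library 3 stood apart in these genes, and results that rest on it are given with and without it. Of the 64 members, 37 (57.8%) had their highest level of the 6 libraries there, against 24.9% of all records. Low library 3 was also the lowest in 24.9% of all records, more than any other library, and in 5 members (7.81%). It was thus often an extreme library over the whole table, in both directions. The count of 37 depends on the scaling: on deposited CPM without TMM factors it was 25 members, beside 14.3% of all records. In 43 records of the whole table (0.561%) low library 3 lay more than 1 log2 unit above every other library, a limit chosen after the values were seen. Each of the other libraries stood that far above the rest in 4 to 9 records. The 43 include HSPA1A, HSPA2 and both HSPB1 records.

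Few records were called by edgeR's test, in the whole table as among the chaperones, and HSPB7 was the member closest to a call. By edgeR's quasi-likelihood test with Benjamini-Hochberg adjustment over the whole table and a threshold of 0.05, 0 of 64 members passed, beside 11 of all 7661 records (0.144%). At an unadjusted p under 0.05 there were 7 members (10.9%), beside 18.5% of all records. CCT6, HSPA13 and DNAJC1 were on the higher side in the high group (4.69% of members, beside 10.2% of all records). HSPB7, DNAJC19, HSF4 and HSPB6 were on the lower side (6.25%, beside 8.30%). At an adjusted p under 0.1 the count was still 0, beside 1.01% of all records. By limma-voom 0 members passed, beside 0.104% of all records. DESeq2 called 1 member, HSPB7, beside 6.77% of the records it tested. The authors' deposited table also has HSPB7 alone among the members under a false discovery rate of 0.05, beside 4.12% of all records, and the authors' deposited list of 134 genes (1.75% of all records) holds HSPB7 as its single chaperone. The high and low libraries did not overlap in 14 members (21.9%), beside 26.8% of all records. Of these, 5 were higher in the high group (7.81%, beside 13.5% of all records) and 9 lower (14.1%, beside 13.3%). Counted in either direction together, each of these member shares lay below the share of all records. The gaps were not tested, and the 64 members share libraries and are not replicates.

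The direction of the members moved with the library that stood apart. With all libraries, 48 of 64 members (75.0%) had a lower fitted level in the high group, beside 54.8% of all records, and the median log2 fold change (high minus low) was -0.13, beside -0.04 over all records. Without low library 3 the members split into 36 higher and 28 lower, with a median of 0.04 beside -0.01 over all records. The sign of 20 members (31.3%) turned when that library was left out, beside 13.1% of all records. Leaving out any other library turned 3 to 8 members. Without low library 3, edgeR's adjusted test again called 0 members, beside 0.209% of all records. At an unadjusted p under 0.05 it gave 8 members (12.5%, beside 17.0%). DNAJB4, HSF2, DNAJB5, HSPH1 and HSPA13 were on the higher side (7.81%, beside 9.71%), and HSPA14, DNAJC19 and HSPB7 on the lower side (4.69%, beside 7.32%). HSPA13, DNAJC19 and HSPB7 were thus the members under that limit both with and without the library.

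**Figure D1:**
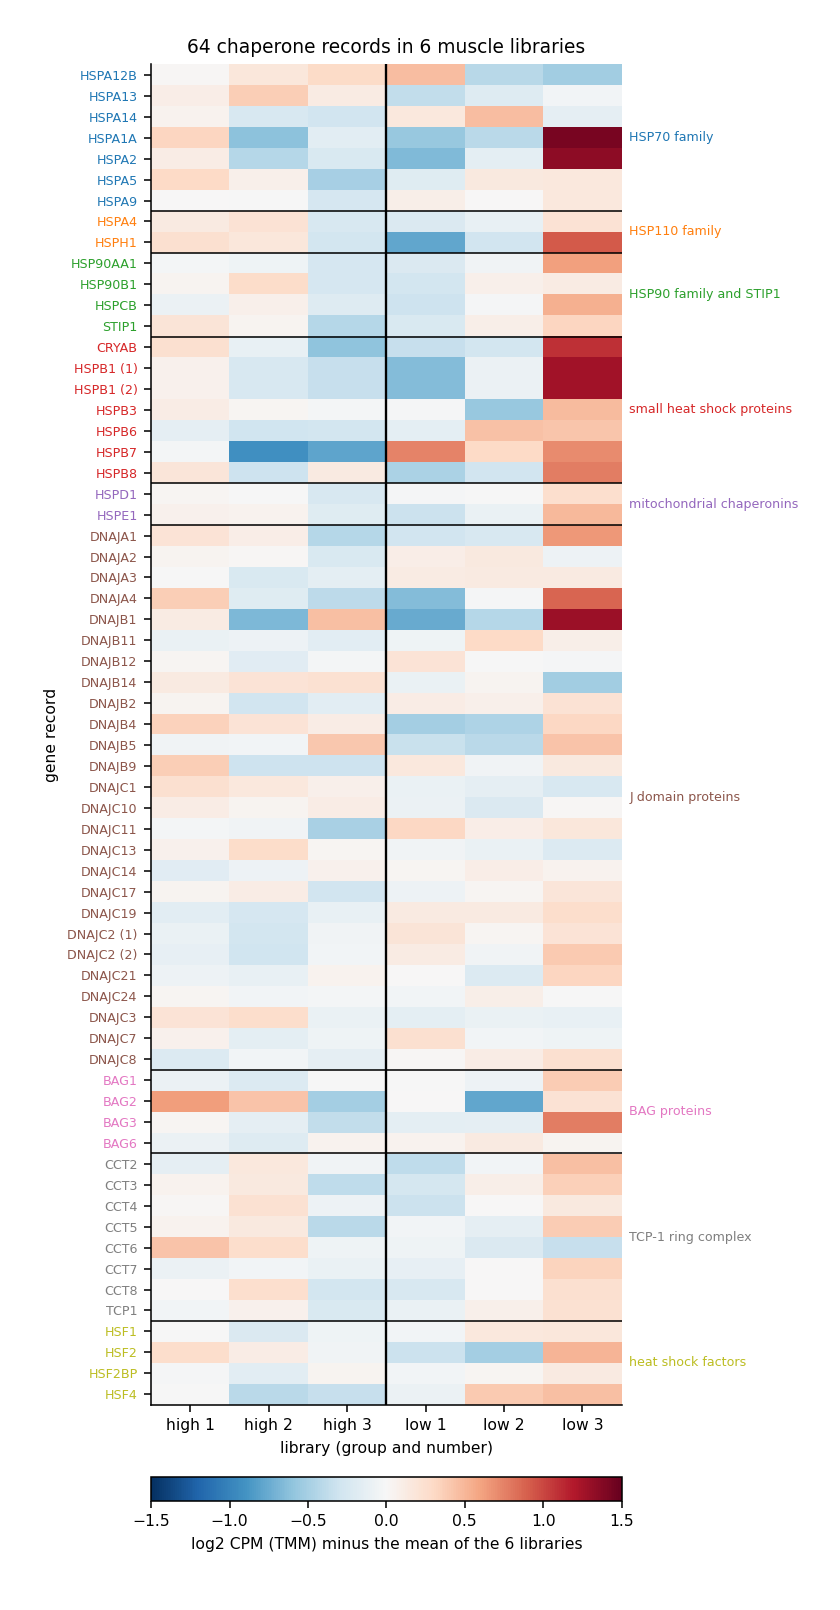
Each cell is the log2 TMM-normalised CPM of 1 of the 64 chaperone records (rows, grouped by role) in 1 library (columns), minus the mean of that record over the 6 libraries; red is above and blue below that mean. The column of low library 3 is the reddest, with HSPA1A, HSPA2, HSPB1, CRYAB and DNAJB1 over 1 log2 unit above their means, while HSPB7 is the row in which the groups separate most.

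The small heat shock proteins held the largest group difference of the whole family. HSPB7, a small heat shock protein of heart and skeletal muscle (GL892419.1:8697-12256 in the deposited table's coordinates, whose build is not given in the sources used here), had 145, 78.2 and 85.4 CPM in high libraries 1 to 3 and 247, 182 and 243 CPM in low libraries 1 to 3. Every high library was below every low library, and low library 3 was not the highest. The means were 103 ± 36.4 CPM (SD, n = 3) in the high group and 224 ± 36.6 CPM (SD, n = 3) in the low group. The log2 fold change was -1.12 with a standard error of 0.26, a level 2.18-fold lower in the high group. The adjusted p was 0.116 by edgeR, 0.103 by limma-voom and 0.00281 by DESeq2, so the call depends on the tool. The authors' deposited table gives a log2 ratio of low over high of 1.12 and a false discovery rate of 0.00296. Leaving out each library in turn kept the log2 fold change of HSPB7 between -1.44 and -0.96.

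HSPB6, which binds actin-associated proteins in muscle (chromosome 6, 40634195-40639501), had 346, 310 and 316 CPM in the high and 346, 517 and 511 CPM in the low libraries. The groups met at low library 1, which matched high library 1, while the other two low libraries were clearly higher. Its log2 fold change was -0.50 (SE 0.19), with an edgeR adjusted p of 0.229, and -0.41 without low library 3.

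HSPB1 (HSP27), a stress-induced chaperone of the cytoskeleton, stood on 2 records of chromosome 3 (9925863-9927499 and 10049289-10050925) whose deposited CPM differed by at most 0.597%, so the pair is likely to share reads and is read here as 1 gene. The first had 905, 727 and 680 CPM in the high and 549, 810 and 2060 CPM in the low libraries. Low library 3 lay above all others by more than 2-fold, while low library 1 was the lowest of all. The log2 fold change was -0.57 (SE 0.45, edgeR adjusted p = 0.516) and 0.19 without low library 3. CRYAB, the alpha-B crystallin that guards desmin and titin (chromosome 9, 44428187-44432883), showed the same order within the low group. It had 1932, 1512 and 1078 CPM in the high and 1286, 1354 and 3488 CPM in the low libraries. Its log2 fold change of -0.44 (SE 0.42, edgeR adjusted p = 0.590) became 0.20 without low library 3.

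HSPB8, the partner of BAG3 in clearing damaged filament proteins, had 2707, 1925 and 2619 CPM in the high and 1726, 1965 and 4077 CPM in the low libraries. The difference was -0.10 (SE 0.34) on the log2 scale with all libraries and 0.39 without low library 3. HSPB3, another muscle form, differed by 0.01 (SE 0.25), with 13.2 to 27.4 CPM in the low and 19.3 to 21.2 CPM in the high libraries. Of this class, HSPB7 and HSPB6 were the members that kept a lower fitted level in the high group without low library 3. The class as a whole gave 1 higher and 6 lower records with a median of -0.50, and 5 higher and 2 lower with a median of 0.19 without low library 3. The median SD of log2 CPM of the class was 0.67 in the low and 0.22 in the high group.

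**Figure D2:**
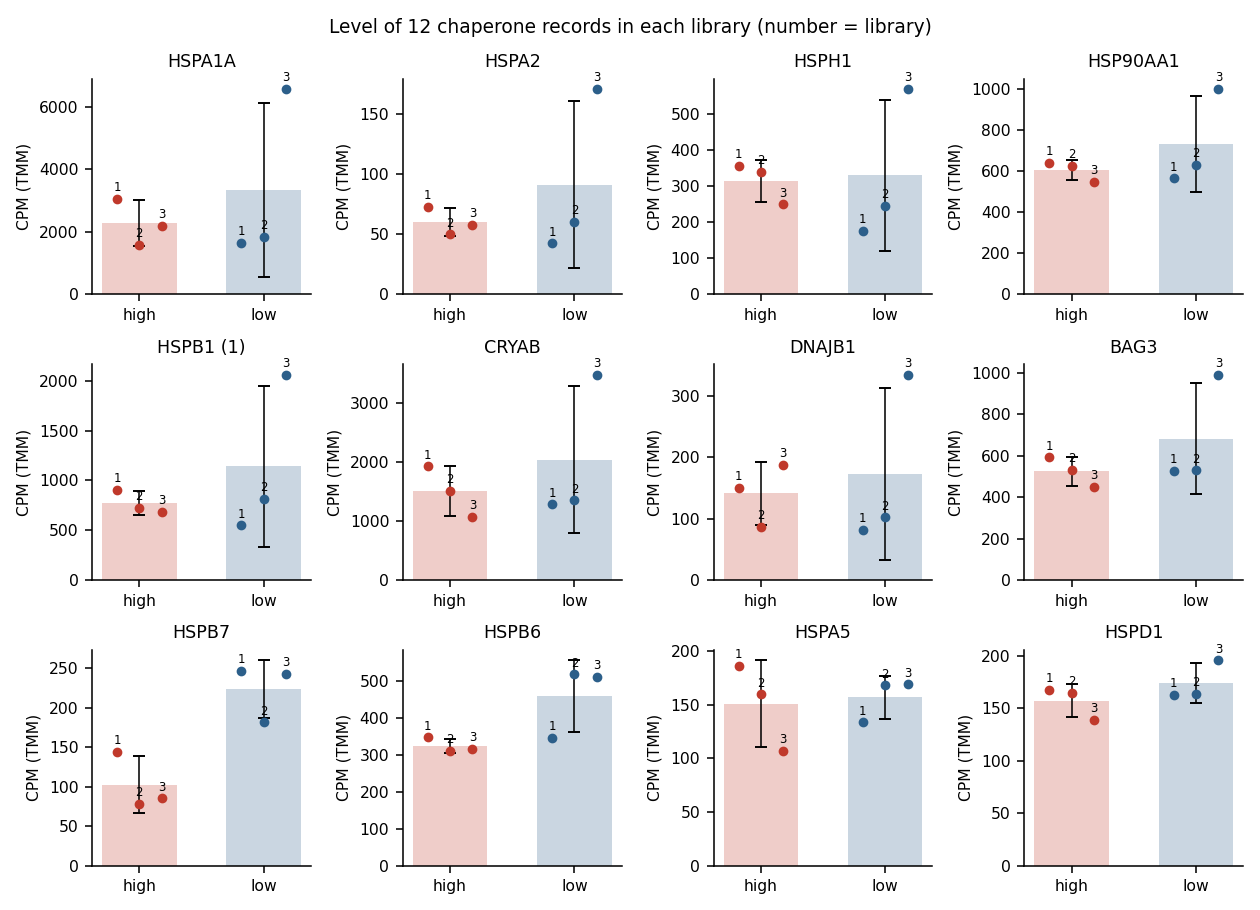
Points are the TMM-normalised CPM of 12 chaperone records in each library, numbered 1 to 3 within the high (red) and low (blue) groups; bars are group means and whiskers ± 1 SD (n = 3), and every axis starts at 0. In HSPA1A, HSPA2, HSPB1, CRYAB, DNAJB1 and BAG3 library 3 is the single low point above all high points, whereas in HSPB7 all 3 low points lie above the high points.

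The HSP70 class (7 records) gave 2 higher and 5 lower records, a median log2 fold change of -0.17, and 0.08 without low library 3. HSPA1A is listed for the stress-inducible cytosolic HSP70 (GL896522.1:3-1799). The name table gives that identifier as HSPA1L, and the near-identical HSP70 genes can split or share reads, so which copy was counted is uncertain. The record had 3047, 1591 and 2197 CPM in the high and 1651, 1846 and 6565 CPM in the low libraries. Low library 3 was 3.56 times the next low library, while low libraries 1 and 2 lay within the range of the high group. The means were 2278 ± 732 CPM (SD, n = 3) in the high and 3354 ± 2783 CPM (SD, n = 3) in the low group, a log2 fold change of -0.56 (SE 0.54, edgeR adjusted p = 0.596) that became 0.39 without low library 3. HSPA2, a relative best known from testis that muscle also expresses, had 72.7, 49.9 and 57.5 CPM in the high and 42.4, 60.6 and 171 CPM in the low libraries. Its low library 3 was 2.82 times the next low library, and the log2 fold change of -0.60 (SE 0.48) became 0.23 without low library 3.

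The other HSP70 members varied less. HSPA5 (BiP), the HSP70 of the endoplasmic reticulum, had 186, 160 and 107 CPM in the high and 134, 168 and 169 CPM in the low libraries, so the groups overlapped throughout and the log2 fold change was -0.06 (SE 0.22). HSPA9 (mortalin), the mitochondrial HSP70, had 291, 289 and 244 CPM in the high and 308, 291 and 325 CPM in the low libraries. Its groups did not overlap, but by a margin far smaller than the spread within either group, and the log2 fold change was -0.17 (SE 0.14, edgeR adjusted p = 0.531). HSPA13, a microsomal member, had 15.5, 18.6 and 15.8 CPM in the high and 11.1, 12.6 and 14.0 CPM in the low libraries. Each high library exceeded each low library, with a log2 fold change of 0.40 (SE 0.15, edgeR adjusted p = 0.231) and 0.49 without low library 3.

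HSPA8, the constitutive HSP70 that carries most routine folding, has no symbol in the deposited table and so lies outside the members. The name table identifies its record, which had 2266, 2177 and 1599 CPM in the high and 1519, 1751 and 3403 CPM in the low libraries. As in HSPA1A, low library 3 was the highest, while the lowest library was low 1 here and high 2 in HSPA1A. Its log2 fold change was -0.14 (SE 0.32) with and 0.31 without low library 3. A further record named HSP70.2 had 43.2 CPM in low library 3 and 9.88 to 19.0 CPM in the others. A record under HSPF1, an older name of DNAJB1, had 173 CPM there and 44.1 to 97.6 CPM elsewhere.

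HSPH1 (HSP105), an HSP110 protein that releases nucleotide from HSP70, had 355, 338 and 249 CPM in the high and 176, 246 and 569 CPM in the low libraries. The low group held both the lowest and the highest of the 6 values, and the log2 fold change of -0.07 (SE 0.41) became 0.58 without low library 3. HSPA4, its relative, ran from 152 to 208 CPM in the high and from 155 to 209 CPM in the low libraries, a difference of 0.07 (SE 0.18) on the log2 scale. Neither passed the test, with edgeR adjusted p of 0.937 and 0.851.

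Among HSP90 and its adaptor, HSP90AA1, the inducible cytosolic form, had 640, 624 and 548 CPM in the high and 564, 630 and 998 CPM in the low libraries. Apart from low library 3 the 5 values lay close together. The log2 fold change was -0.28 (SE 0.23, edgeR adjusted p = 0.538) and 0.02 without that library. HSPCB, the older symbol of the constitutive form HSP90AB1, ranged from 444 to 533 CPM in the high and from 408 to 734 CPM in the low libraries (log2 fold change -0.18, SE 0.23). STIP1, which bridges HSP70 and HSP90, ranged from 165 to 252 and from 190 to 278 CPM (-0.12, SE 0.21). HSP90B1 (GRP94), the form of the endoplasmic reticulum, ranged from 158 to 228 and from 156 to 205 CPM, with a log2 fold change of 0.05 (SE 0.18). All 4 had overlapping groups.

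J domain proteins made up 26 records, 7 higher and 19 lower in the high group, with a median log2 fold change of -0.12 (-0.06 without low library 3). By subclass, 0 of 4 DNAJA, 3 of 8 DNAJB and 4 of 14 DNAJC records were higher. DNAJB1 (HSP40), the inducible partner of HSP70, had 150, 86.2 and 188 CPM in the high and 81.5, 102 and 335 CPM in the low libraries. Both groups were widely spread, and the log2 fold change of -0.29 (SE 0.54, edgeR adjusted p = 0.791) became 0.63 without low library 3. DNAJA1, a farnesylated cytosolic partner, had 232, 217 and 150 CPM in the high and 166, 171 and 318 CPM in the low libraries, with a log2 fold change of -0.13 (SE 0.29) and 0.25 without low library 3. DNAJB4, an inducible member of heart and muscle, had another order. It had 851, 774 and 723 CPM in the high and 469, 484 and 830 CPM in the low libraries, so low libraries 1 and 2 lay below the whole high group and low library 3 within it. Its log2 fold change was 0.40 (SE 0.24, edgeR adjusted p = 0.404) and 0.72 without low library 3, where the edgeR adjusted p was 0.117.

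Some J domain proteins serve organelles. DNAJC19, a J-like subunit tied to the inner mitochondrial membrane translocase, had 33.8, 31.9 and 35.1 CPM in the high and 41.4, 41.5 and 45.3 CPM in the low libraries. The groups were well separated relative to an SD of 1.60 and 2.23 CPM (n = 3 each), and the log2 fold change was -0.35 (SE 0.11, edgeR adjusted p = 0.188). DNAJC1, a J domain protein of the endoplasmic reticulum membrane, had 29.0, 27.3 and 25.7 CPM in the high and 22.9, 22.3 and 20.7 CPM in the low libraries, the reverse order. Its log2 fold change was 0.31 (SE 0.12, edgeR adjusted p = 0.236). DNAJB14, also of that membrane, had 10.1, 10.6 and 10.7 CPM in the high and 8.55, 9.45 and 6.40 CPM in the low libraries. The log2 fold change was 0.36 (SE 0.18). All its levels lay near or under the table's lower limit of 10 CPM, with every low library under it on this scale. Such a limit can favour a higher level in the high group. The SD of log2 CPM of DNAJB14 was 0.29 in the low group, above the 0.08 of DNAJC1 and the 0.07 of DNAJC19.

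The 4 BAG records gave 1 higher and 3 lower, with a median of -0.18 (-0.02 without low library 3). BAG3, the co-chaperone that links HSPA and HSPB8 to autophagy of filament proteins in muscle, had 592, 532 and 450 CPM in the high and 525, 529 and 992 CPM in the low libraries. Low library 3 was 1.87 times the next low library, and the log2 fold change of -0.38 (SE 0.27, edgeR adjusted p = 0.474) was -0.002 without it. BAG2, an inhibitor of the ubiquitin ligase STUB1, was the member most spread in the high group, with 18.9, 16.5 and 8.64 CPM beside 12.4, 7.16 and 14.3 CPM in the low group. Its log2 fold change was 0.38 (SE 0.34).

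The cytosolic chaperonin TRiC folds actin and tubulin and is built from TCP1 and the CCT subunits. Its 8 records gave 2 higher and 6 lower, a median of -0.09 and 0.09 without low library 3. CCT6, listed under that symbol, had 88.8, 78.9 and 62.9 CPM in the high and 63.0, 56.7 and 52.0 CPM in the low libraries. The groups met at high library 3 and low library 1, and the log2 fold change was 0.42 (SE 0.16, edgeR adjusted p = 0.228). TCP1 ranged from 93.3 to 115 CPM in the high and from 102 to 129 CPM in the low libraries, a difference of -0.14 (SE 0.14) on the log2 scale. The other 6 subunits ran from -0.16 for CCT7 to 0.10 for CCT4, so CCT6 was the subunit furthest from the rest of its ring. HSPD1 (HSP60) and HSPE1 (HSP10), the mitochondrial chaperonin and its lid, differed by -0.15 (SE 0.14) and -0.08 (SE 0.22).

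Of the 4 records under an HSF symbol, 1 was higher and 3 lower in the high group, with a median log2 fold change of -0.14 (-0.09 without low library 3). HSF1, the main stress-activated factor, had 33.9, 29.3 and 32.5 CPM in the high and 33.2, 38.0 and 38.4 CPM in the low libraries, a log2 fold change of -0.20 (SE 0.12, edgeR adjusted p = 0.418). HSF2 had 107, 96.3 and 85.5 CPM in the high and 70.9, 62.7 and 127 CPM in the low libraries, with low library 3 highest and the other low libraries lowest (0.15, SE 0.26; 0.53 without low library 3). HSF4, a factor best known from the lens, had 17.8, 13.5 and 14.0 CPM in the high and 16.8, 23.5 and 24.6 CPM in the low libraries, with a log2 fold change of -0.52 (SE 0.19, edgeR adjusted p = 0.229). HSF2BP matched the symbol rule but is a binding partner of HSF2, not a factor, and it differed by -0.09 (SE 0.13).

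**Figure D3:**
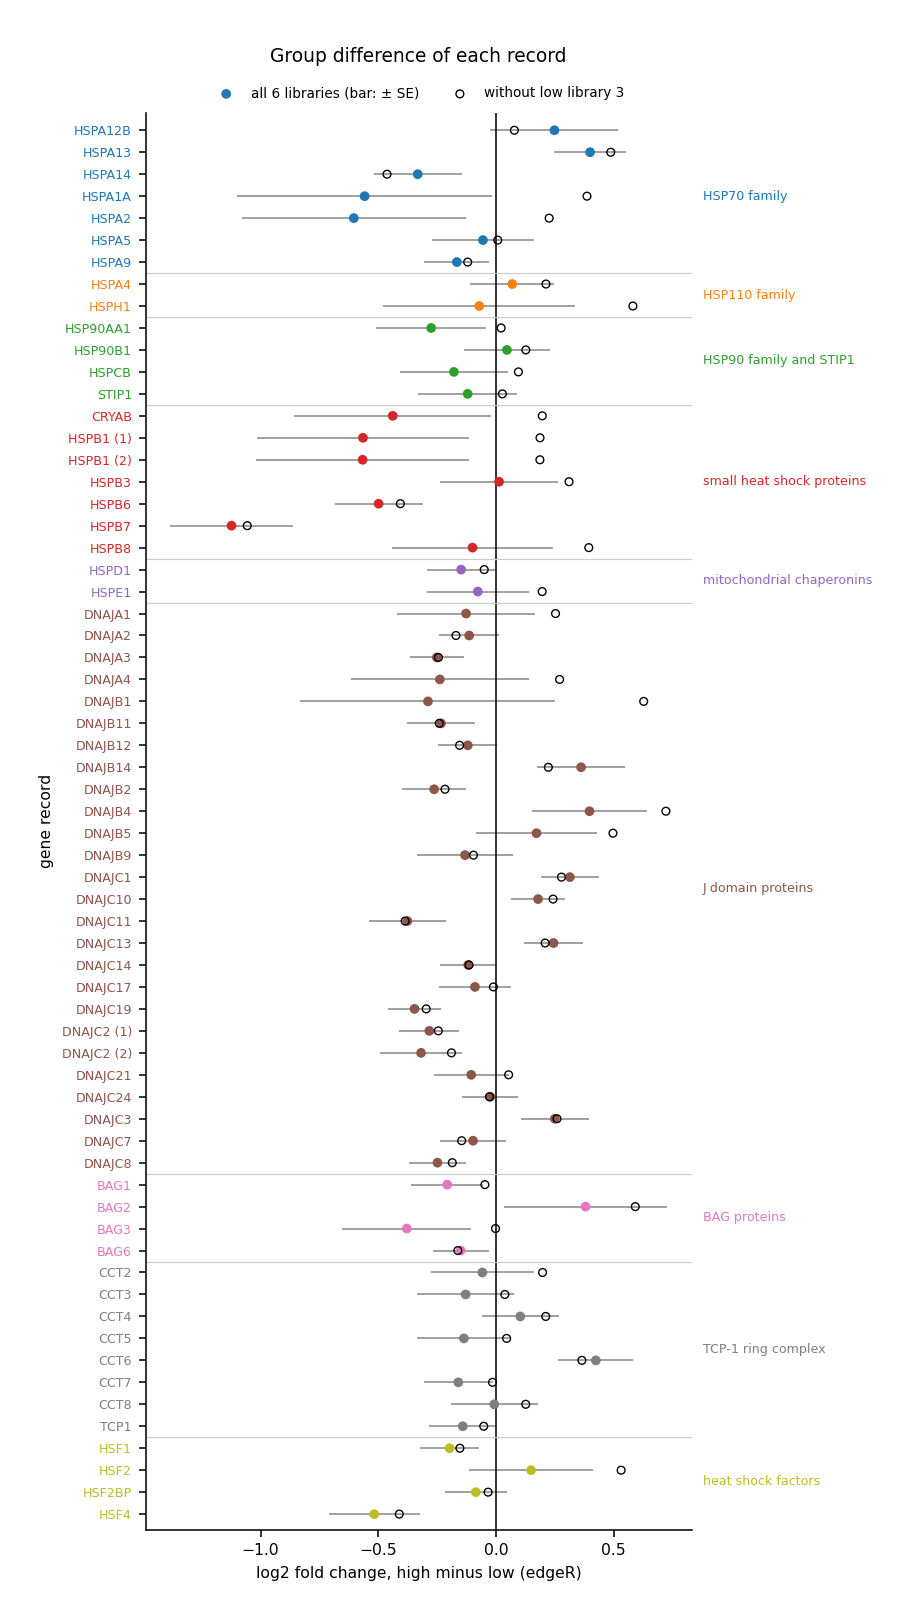
Filled points are the edgeR log2 fold change (high minus low) of each of the 64 records with all 6 libraries, with bars of ± 1 standard error; open circles are the same value without low library 3. The open circles of HSPA1A, HSPA2, HSPB1, CRYAB, HSPH1, DNAJA1 and DNAJB1 lie on the other side of 0 from their filled points, while those of HSPB7, HSPB6, DNAJC19, DNAJC1, HSPA13 and CCT6 stay on the same side.

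A set of genes known to respond to heat shock (20 names listed, 16 records of 15 genes among the members) was widely spread in the low group. HSPA8 and HSP70.2 are on the list but lie outside the members, so they are not counted. HSPA2, also widely spread, is not on the list. The set was chosen with earlier results of these data known, and it includes HSPCB, named above as the constitutive HSP90 form. In low library 3, 15 of its 16 records (93.8%) had their highest level, the exception being DNAJB4, beside 22 of the other 48 members (45.8%). On deposited CPM the count was 14 of 16. Within the low group, library 3 was the highest and library 1 the lowest in all 16 records, which include both HSPB1 records. Within the high group, library 3 was the lowest in 13 of 16. The shares of all records with these orders were not counted, so how unusual the orders are is not known. The summed level of the set was 13563, 10343 and 10593 CPM in high libraries 1 to 3, and 8777, 10152 and 23915 CPM in low libraries 1 to 3. The sum counts both HSPB1 records and is dominated by the abundant HSPA1A, HSPB8 and CRYAB. Low library 3 thus held more than any other library, and low library 1 the least. The set's median log2 fold change was -0.16 with 14 of 16 records lower, and 0.20 with 14 of 16 higher when low library 3 was left out.

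Spread within groups was uneven among the members. The median SD of log2 CPM was 0.24 in the low and 0.15 in the high group over the 64 members, beside 0.21 and 0.15 over all records. In the inducible set it was 0.53 in the low and 0.23 in the high group, and the low value was 0.12 without low library 3. For all members the low value without that library was 0.13, beside 0.15 over all records. The SD was larger in the low group in 14 of 16 inducible records, in 27 of the other 48 members (56.3%) and in 64.4% of all records. HSPA1A (1.11), DNAJB1 (1.09), HSPA2 (1.04) and HSPB1 (0.98) had the largest SD in the low group. BAG2 (0.60), DNAJB1 (0.58), HSPB7 (0.48) and HSPA1A (0.47) had the largest in the high group. With 3 values a group, no test of a difference in spread was made.

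**Figure D4:**
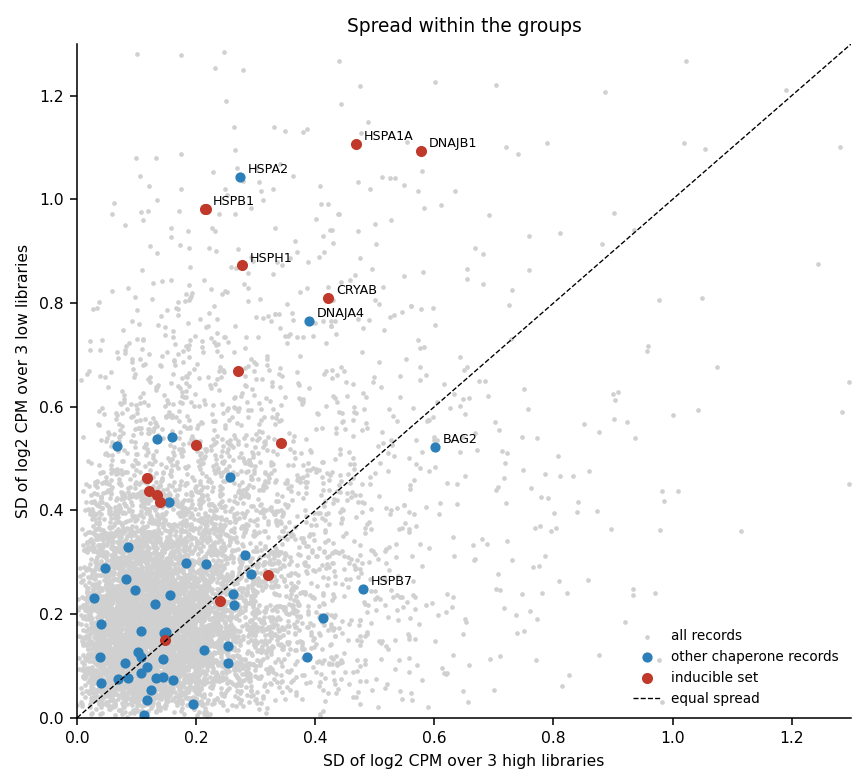
Each point is 1 record, placed by the SD of its log2 CPM over the 3 high libraries (horizontal) and the 3 low libraries (vertical), with all 7661 records in grey, the inducible set in red, other chaperone records in blue and equal spread as a dashed line; 53 records beyond 1.3 are not drawn. Most red points lie above the line, with HSPA1A and DNAJB1 the highest.

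Sums of 2 marker lists ordered the low libraries as the inducible set did, though their single records did not all do so. In both sums low library 1 was the lowest and low library 3 the highest of all 6. Slow fibre markers (6 records, such as MYH7) summed to 10991, 11567 and 13785 CPM in the high and 8512, 17485 and 17889 CPM in the low libraries, with low libraries 2 and 3 close together. Of the slow fibre records 2 were highest in low library 3, 3 (MYH7 among them) in low library 2 and 1 in high library 3. Macrophage markers (6 records) summed to 147, 215 and 219 CPM in the high and 86.3, 212 and 255 CPM in the low libraries. Of these, 4 records, all of C1Q genes, were highest in low library 3, and CSF1R and MRC1 in high library 2. The sum of adipocyte markers was lowest in low library 3, at 47.4 CPM, with 2 of 5 records lowest there. The sums of endothelial markers (6 records) and of smooth muscle and pericyte markers (7 records) were also lowest there, at 324 and 416 CPM. Of their single records, 2 of 6 and 4 of 7 were lowest in low library 3, while ESAM and CNN1 were highest there. Erythrocyte markers (2 records) were highest in low library 2, at 228 CPM, and the single lymphocyte marker with a record was likewise highest there, at 22.6 CPM. The part of slow fibres, macrophages or the other cells in the levels of the inducible genes was not tested.

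Members of the endoplasmic reticulum and of mitochondria were read as separate subsets. The endoplasmic reticulum list held 8 members and did not include DNAJB14. Of the 8, 0 had their highest level in low library 3, 5 were higher in the high group and 3 lower, and the median log2 fold change was 0.11 (0.19 without low library 3). In HSPA13, DNAJC1 and DNAJC10 every high library exceeded every low one, and in DNAJB11, a co-chaperone of HSPA5, every high library was below, which is 4 of 8 beside 26.8% of all records. All 6 mitochondrial members had a lower fitted level in the high group, at a median of -0.21 (-0.18 without low library 3), and 4 of the 6 were highest in low library 3. The groups of HSPA9, DNAJA3, DNAJC11 and DNAJC19 did not overlap, 4 of 6 beside 13.3% of all records in that direction. With so few members, and lists chosen with earlier results known, these counts are descriptions. None of the 14 passed the test.

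Folding genes outside the symbol rule were read from 6 lists, and 0 of their records passed edgeR's test at an adjusted p under 0.05. The factors of the unfolded protein response (12 records) gave 7 higher and 5 lower, with a median log2 fold change of 0.14 (0.22 without low library 3). SEL1L, a subunit of the complex that removes misfolded proteins from the endoplasmic reticulum, had 13.6, 13.8 and 12.7 CPM in the high and 10.8, 7.25 and 7.10 CPM in the low libraries (0.67, SE 0.20, edgeR adjusted p = 0.163). EIF2AK3 (PERK), a sensor of unfolded protein there, had 30.3, 31.7 and 19.0 CPM beside 18.8, 17.3 and 17.4 CPM (0.60, SE 0.20, edgeR adjusted p = 0.197). In both genes every high library exceeded every low library, in EIF2AK3 by a narrow margin. Low libraries 2 and 3 of SEL1L were under 10 CPM, so its place in the table rests on the high group. The table's lower limit thus favours its separation. The folding enzymes of the endoplasmic reticulum (12 records) gave 4 higher and 8 lower, with a median of -0.07, and 6 higher and 6 lower with a median of 0.003 without low library 3. FKBP9 was at 0.41 (SE 0.15) and UGGT1, which tests glycoprotein folding, at 0.60 (SE 0.23). PPIB, a prolyl isomerase, was at -0.42 (SE 0.16).

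The remaining 4 lists cover the cytosol and mitochondria. All 5 prefoldin records, whose products hand actin and tubulin to TRiC, were lower, with a median of -0.22 that was -0.07 without low library 3. PFDN2 had 27.7, 23.9 and 26.8 CPM in the high and 31.4, 32.6 and 48.1 CPM in the low libraries, and its log2 fold change of -0.51 (SE 0.19) was -0.29 without low library 3. The co-chaperones of HSP90 and HSP70 gave 5 higher and 14 lower of 19 records (median -0.14, and -0.04 without low library 3). UNC45A, a myosin chaperone of non-muscle cells, was at -0.49 (SE 0.13, edgeR adjusted p = 0.145), while SMYD1, a muscle methyltransferase that acts with HSP90 in sarcomere assembly, was at 0.48 (SE 0.21, edgeR adjusted p = 0.281). Of the mitochondrial folding and quality control list, 3 records were higher and 8 lower (median -0.15, and -0.09 without low library 3), with the prohibitins PHB2 at -0.41 (SE 0.13) and PHB at -0.32 (SE 0.11). Of the AAA chaperones, 1 was higher and 7 lower (median -0.27, and -0.19 without low library 3), with RUVBL2 at -0.56 (SE 0.15, edgeR adjusted p = 0.142) and UFD1L at -0.27 (SE 0.12). Over all records the median was -0.04, and -0.01 without low library 3.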

How the data were processed

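RNA of longissimus dorsi was extracted with TRIzol and made into Illumina TruSeq libraries, per the labels' protocols. FastQC 0.10.1, Trimmomatic 0.22, TopHat2 2.0.4 and BWA 0.6.2 are named in the submitters' processing notes without roles. The read counter, strand setting, genome build, annotation and the authors' test are each not given in the sources used here, so antisense or overlapping genes cannot be told apart. The authors deposited raw read counts and CPM per library, with log2 fold changes (low over high), p-values and false discovery rates, per the file headers.

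Counts were tested with edgeR 4.0.16 (R 4.3.3; TMM, filterByExpr, which kept all 7661 records, quasi-likelihood F-test, Benjamini-Hochberg adjustment over the whole table, threshold 0.05), high against low without covariates. The biological coefficient of variation was 20.7%. Library sizes were worked out from the deposited counts and CPM of each library. Spread is the SD of log2 CPM with a prior count of 2. With 3 against 3 libraries an exact permutation test cannot go below p = 0.1. The code was tested on simulated data. The members, lists and tests were chosen with earlier results of these data known.

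Named members were those past the threshold, the 5 with the largest change per direction, those with an unadjusted p under 0.05, the 4 most spread per group, the smallest p of each role, and a set always named; of each related list up to 2 by p. HSPA14, HSPB3, HSPB8, DNAJB5, HSP90B1, HSPE1, CCT4, CCT7, HSF2BP, DNAJC10, DNAJC11, DNAJA3, DNAJB11, PPIB and the older-named records were added after their values were seen. Alternatives were DESeq2 1.42.0, its size factors in edgeR, limma-voom (limma 3.58.1), other filters, a replicate block, each library left out, a threshold of 0.1 and a prior count of 0.5. Of the 64 members, 51 matched the name table, 49 of them under the same symbol.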

Additional observations from a re-analysis of the deposited data

How the results depend on the processing

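The 11 records called over the whole table became 518 with DESeq2, 2 with the replicate block and 77 at a threshold of 0.1, and 1 to 30 when each library was left out. The labels used here name no pairing of libraries by number. Deviations of same-numbered libraries from their group means correlated at 0.118, 0.0312 and -0.0815 across records. Other pairs ranged from -0.185 to 0.144. These values cannot decide whether the numbers pair pigs, since the deviations within a group sum to 0 and so depend on each other. Among chaperone members DESeq2 called 1 (HSPB7) and each other alternative 0. HSPH1 changed sign to 0.0824 with limma-voom and 0.11 with the replicate block; the cause was not tested. When each library was left out, log2 fold changes that crossed 0 ranged from -0.36 to 0.58 for HSPH1, -0.87 to 0.39 for HSPA1A, -0.93 to 0.23 for HSPA2, -0.22 to 0.14 for HSPA5, -0.42 to 0.0223 for HSP90AA1, -0.34 to 0.10 for HSPCB, -0.24 to 0.0397 for STIP1, -0.28 to 0.25 for DNAJA1, -0.61 to 0.63 for DNAJB1, -0.67 to 0.20 for CRYAB, -0.88 to 0.19 for HSPB1, -0.0202 to 0.21 for HSPA4 and -0.0379 to 0.53 for HSF2. The positive end came without low library 3, except in HSPA5 and STIP1, where it came without high library 3. Median log2 fold changes ranged from -0.15 to -0.0614 for J domain proteins, -0.24 to -0.0243 for BAG proteins, -0.35 to 0.20 for the inducible set, 0.0717 to 0.19 for the endoplasmic reticulum members and -0.17 to -0.0357 for the co-chaperones. That of the endoplasmic reticulum members was 0.0613 with a minimum mean of 20 CPM, where fewer records were fitted. The members' median SD in the low group ranged from 0.126 to 0.258, lowest without low library 3. Records under a mean of 20 CPM were not fitted under that filter. A description of promoter motifs was planned and not run, since no promoter sequences were used here. With 3 libraries a group, depth limits no level given here, but the number of pigs limits every adjusted p.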
